A study of Mus musculus with 6 samples.

Results

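The circadian clock genes described here are Arntl, Clock, Per1, Per2, Per3, Cry1, Cry2, Nr1d1, Nr1d2 and Dbp, measured in heart muscle cells with and without the transcription factor TFEB. They were chosen by gene symbol, 10 of the 46450 symbols in the deposited table, and all 10 passed the filter on low values (at least 1 CPM, the library-scaled count, in at least 3 libraries), which left 12437 genes in all. The samples were adult cardiomyocytes isolated from hearts of C57BL/6 mice aged 3 months, 3 libraries from wild type and 3 from TFEB-/- animals, with stranded mRNA libraries made from 400 ng of total RNA. The labels name no treatment, and they do not say how Tfeb was deleted, in which cells, whether each library came from its own animal, or at what time of day the hearts were taken. P-values thus measure the spread between these 6 libraries, which may be partly technical.

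The clock is a transcriptional loop that runs in nearly every cell, including cardiomyocytes. ARNTL (also called BMAL1) and CLOCK bind E-boxes as a pair and switch on the Per and Cry genes, whose products return to the nucleus and block that pair, and they also switch on Nr1d1, Nr1d2 and Dbp. NR1D1 and NR1D2 (REV-ERB alpha and beta) bind ROR elements and repress Arntl and Clock, so Arntl RNA runs in opposite phase to Dbp and Nr1d1, while DBP acts through D-boxes, among others in the Per genes. TFEB and its relative TFE3 recognise an extended E-box and have been described as regulators of Nr1d1.

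Some elements of this loop can be read in the promoters of the clock genes. RefSeq promoter windows (GRCm38.p6, 250 bases before to 50 after a start) were found for 9 of the 10 genes, and Per2 had no entry. Both strands were searched for the E-box (CACGTG), the D-box (TTATGTAA) and a core of the ROR element (TAGGTNA). They were also searched for an E-box with a leading T (TCACGTG), which overlaps the plain E-box, and for the longer CLEAR element that TFEB is known to bind. The following 4 sites, in capitals within 30 bases, are the ROR element cores at the start of Arntl and the E-boxes of Cry1 and Per1, on the strand of each gene.
Arntl, first core, chr7:113207494-113207523, plus strand: tggtcggaaagTAGGTTAgtggtgcgacat
Arntl, second core, chr7:113207530-113207559, plus strand: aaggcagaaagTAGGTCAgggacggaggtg
Cry1, chr10:85185097-85185126, minus strand: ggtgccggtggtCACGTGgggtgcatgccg
Per1, chr11:69098771-69098800, plus strand: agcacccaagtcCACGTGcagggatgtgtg

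Ciart and Tef are not among the 10 genes but belong to the same loop. Both, like Dbp, were lowest in wild type 1, described below. Both held an E-box, while Dbp, Cry2 and Nr1d2, also lowest in wild type 1, held no match. Cry1 held an E-box and was not lowest in wild type 1. Hlf, of the same loop and also lowest in wild type 1, was searched with Ciart and Tef, and its 1 window held no match. CIART represses the ARNTL and CLOCK pair, and TEF is a D-box binding relative of DBP. The Ciart promoter held 3 E-boxes, and at least that many were found in 29 of 32851 windows (0.0883%).
Ciart, first E-box, chr3:95882327-95882356, minus strand: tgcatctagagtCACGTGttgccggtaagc
Ciart, the second and the third E-box, chr3:95882262-95882291, minus strand: ggaggCACGTGcagaaccgCACGTGtctgg
Tef, first start, chr15:81802534-81802563, plus strand: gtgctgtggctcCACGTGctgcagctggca
Tef, second start, chr15:81811264-81811293, plus strand: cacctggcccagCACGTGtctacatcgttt

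Per3 and Cry2 are shown over the 250 bases before their starts, because these were the 2 clock genes whose values did not overlap between the genotypes. The Per3 stretch held 2 D-boxes (capitals), and at least that many were found in 7 of the 32851 windows (0.0213%). This share and that for Ciart take the count found as their cut, after several motifs and genes were searched. They are descriptions only. The Cry2 stretch held none of the letters searched.
Per3, chr4:151044666-151044915, minus strand: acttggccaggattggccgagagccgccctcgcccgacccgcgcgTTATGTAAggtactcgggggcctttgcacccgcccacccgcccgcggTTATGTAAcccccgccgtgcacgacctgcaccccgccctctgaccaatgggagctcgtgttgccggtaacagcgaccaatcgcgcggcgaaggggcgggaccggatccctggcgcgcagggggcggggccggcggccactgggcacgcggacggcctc
Cry2, chr2:92434070-92434319, minus strand: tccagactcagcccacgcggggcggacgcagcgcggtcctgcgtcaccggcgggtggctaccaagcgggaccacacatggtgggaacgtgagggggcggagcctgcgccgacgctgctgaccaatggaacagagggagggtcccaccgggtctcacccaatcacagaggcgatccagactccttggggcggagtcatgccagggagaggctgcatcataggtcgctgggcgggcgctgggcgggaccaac

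Among all windows an E-box was found in 7.15%, the D-box in 0.938%, the ROR element core in 8.29%, TCACGTG in 3.77% and the CLEAR element in 0.326%. TCACGTG was present in the windows of Cry1 and Ciart, where it overlaps the E-box shown above, and the CLEAR element was in no window of the 9 clock genes. Of the 9 clock genes 2 held an E-box in at least 1 window (Cry1, Per1), 1 the D-box (Per3) and 1 the ROR element core (Arntl). The 5 genes Clock, Cry2, Nr1d1, Nr1d2 and Dbp held no match. These are counts of genes, while the shares above are of windows. Clock had 3 windows, Arntl and Per1 had 2 each, and the E-box of Per1 was in 1 of its 2. These matches describe letters in short windows and not bound sites.

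The libraries were alike in sum, from 999505 to 999655 CPM, because the authors scaled them, and the reads behind a value cannot be recovered. Per the labels, sequencing gave from 14000000 to 75000000 read pairs per sample (median 21000000), without saying which sample had how many. Transcripts of the mitochondrial genome took 30.7, 33.9 and 44.6% of the wild-type libraries and 22.2, 30.3 and 25.3% of the TFEB-/- libraries, and the 12437 tested genes had a median log2 fold change of 0.24 as deposited and 0.01 with median-ratio scaling. Tfeb measured 17, 30 and 23 CPM in wild type, against 6, 5 and 7 CPM in TFEB-/- (log2 fold change −1.85, limma adjusted p = 0.0267), so it was lower in every TFEB-/- library. Leaving out wild type 1 kept its call, and leaving out any of the other 5 libraries ended it (limma adjusted p = 0.0604 to 0.116), as did the replicate block (adjusted p = 0.112). Cardiomyocyte markers such as Myh6 (18996 to 33390 CPM) and Actc1 (8734 to 13913 CPM) were high in every library. Xist was listed at 0 and Ddx3y at 8 to 12 CPM in all 6 libraries.

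One library stood apart in these genes. In wild type 1 the activator Arntl was high and Dbp, Per2 and Ciart were low, while Nr1d1, also a target of the ARNTL and CLOCK pair, was high. Wild type 1 was the highest library for 3 of the 10 clock genes (Arntl, Clock, Nr1d1) and the lowest for 6 (Per1, Per2, Per3, Cry2, Nr1d2, Dbp), 9 of 10 in all, whereas it was the highest or lowest library for 18.1% of all tested genes. Its distance to the nearest other library was at least 2-fold (on CPM + 0.5) for 3 clock genes, Arntl, Per2 and Dbp. That distance was reached by 63 of the 12437 genes (0.507%) in wild type 1 and by 0.354 to 1.15% of genes in each of the other libraries, none of them a clock gene. Ranked by this distance in wild type 1, Arntl ranked 1, Dbp 2 and Ciart 3 of 12437 genes. Npas2, of the loop and like Ciart outside the 10, ranked 4 in TFEB-/- 2, at 0 CPM there and 1 or 2 CPM elsewhere.

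**Figure D1:**
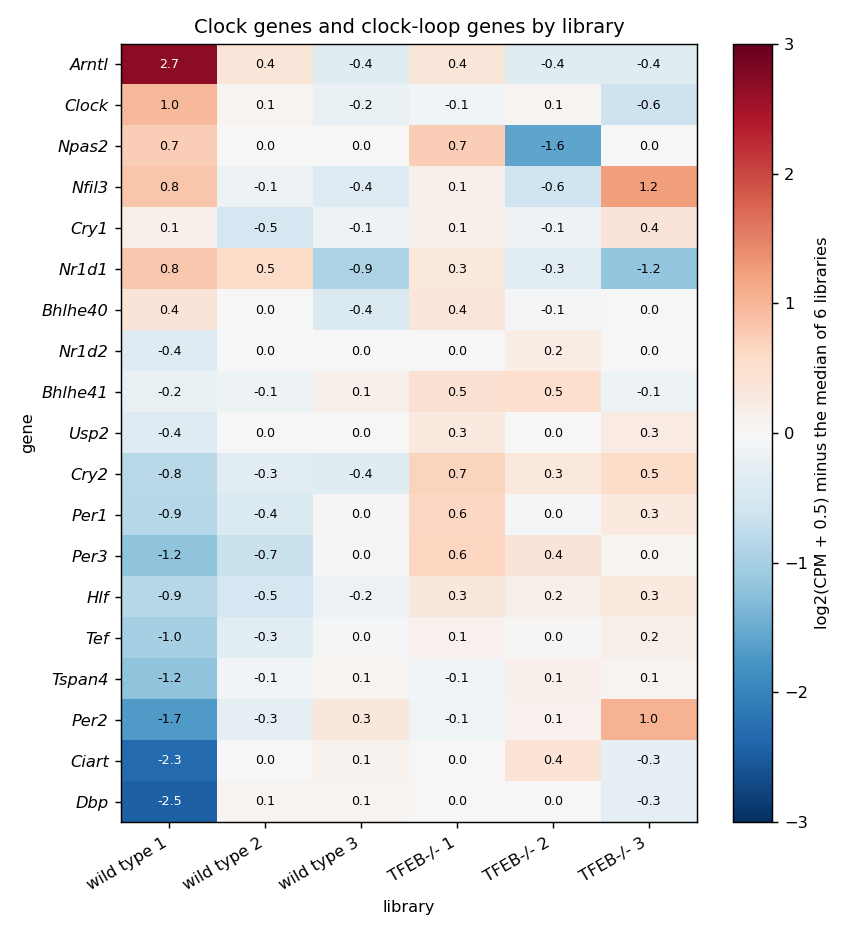
Each cell gives log2(CPM + 0.5) of a gene (rows) in a library (columns) minus the gene's median over the 6 libraries, for the 10 clock genes and 9 other genes of the clock loop or under clock control. Wild type 1 is the column with the strongest colours, with Arntl 2.7 above and Dbp 2.5 below the median.

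Sums of red cell and of endothelial markers were also highest in wild type 1. The summed CPM of 5 red cell genes was 35 in wild type 1, 5 and 9 in the other wild-type libraries and 6 to 10 in TFEB-/-, with Hba-a1 at 17 against 1 to 4 CPM, Hbb-bs at 12 against 2 to 5 CPM and Alas2 at 0 throughout. The summed CPM of 11 endothelial markers was 533 in wild type 1, 441 and 487 in the other wild-type libraries and 395 to 474 in TFEB-/-. Of these markers Cdh5 was highest in wild type 1 (86 CPM), and Fabp4, the most abundant, was not (147 CPM, within 112 to 176 CPM in the others). The part of these cells in the clock gene values was not tested. In such bulk samples fewer cells of a type and less RNA per cell cannot be told apart.

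Of the 2 activators, Arntl showed the contrast of wild type 1 most plainly. Arntl (ENSMUSG00000055116; GRCm38 chromosome 7, 113207465 to 113314126, plus strand) measured 12, 2 and 1 CPM in wild type and 2, 1 and 1 CPM in TFEB-/-. Wild type 1 alone lay above 2 CPM, and the remaining libraries were at the limit that rounding to whole numbers sets. The log2 fold change was −1.02 (SE 0.86, limma adjusted p = 0.515), and it was −0.12 without wild type 1 (adjusted p = 0.847). Clock (ENSMUSG00000029238; chromosome 5, 76209868 to 76304792, minus strand), the partner of ARNTL, was at 19, 10 and 8 CPM in wild type, against 9, 10 and 6 CPM in TFEB-/-. Again wild type 1 was the highest library and the others overlapped between genotypes (log2 fold change −0.47, SE 0.38, adjusted p = 0.486, and −0.13 without wild type 1). Npas2, which can stand in for CLOCK, was at 2, 1 and 1 CPM and at 2, 0 and 1 CPM, too low for a comparison of libraries.

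Dbp (ENSMUSG00000059824; chromosome 7, 45705088 to 45710203, plus strand), the D-box activator and a direct output of the ARNTL and CLOCK pair, measured 15, 90 and 90 CPM in wild type and 85, 84 and 69 CPM in TFEB-/-. Wild type 1 was 4.48-fold below the nearest other library on CPM + 0.5, and the other 5 lay close together. With all libraries the log2 fold change was 0.66 (SE 0.77, limma adjusted p = 0.616). Without wild type 1 it turned to −0.19 (SE 0.12, adjusted p = 0.35), and the 3 TFEB-/- values then lay below both wild-type values.

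The ratio of Dbp to Arntl, which does not depend on how a library was scaled, was 1.25 in wild type 1. It was 45 and 90 in the other wild-type libraries and 42.5, 84 and 69 in TFEB-/-. Rounding leaves wide limits where Arntl was at 1 or 2 CPM, from 33.8 to 181 over these 5 libraries, against 1.16 to 1.35 in wild type 1. The ratio of Per3 to Arntl likewise was 0.5 in wild type 1 and 4.5 to 19 in the other libraries, and that of Nr1d1 to Arntl was 13.5 against 41 to 74. All 3 ratios have Arntl as denominator, at 12 CPM in wild type 1 and 1 or 2 CPM elsewhere. They are thus not independent of its outlying value, and Nr1d1 itself was highest in wild type 1. The genotypes overlapped in all 3 ratios. The ratio of Per1 to Per2, 2 genes of the same arm, was 10.7, 4.78 and 4.29 in wild type and 9, 4.75 and 3.13 in TFEB-/-, so here TFEB-/- 1 lay near wild type 1.

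**Figure D2:**
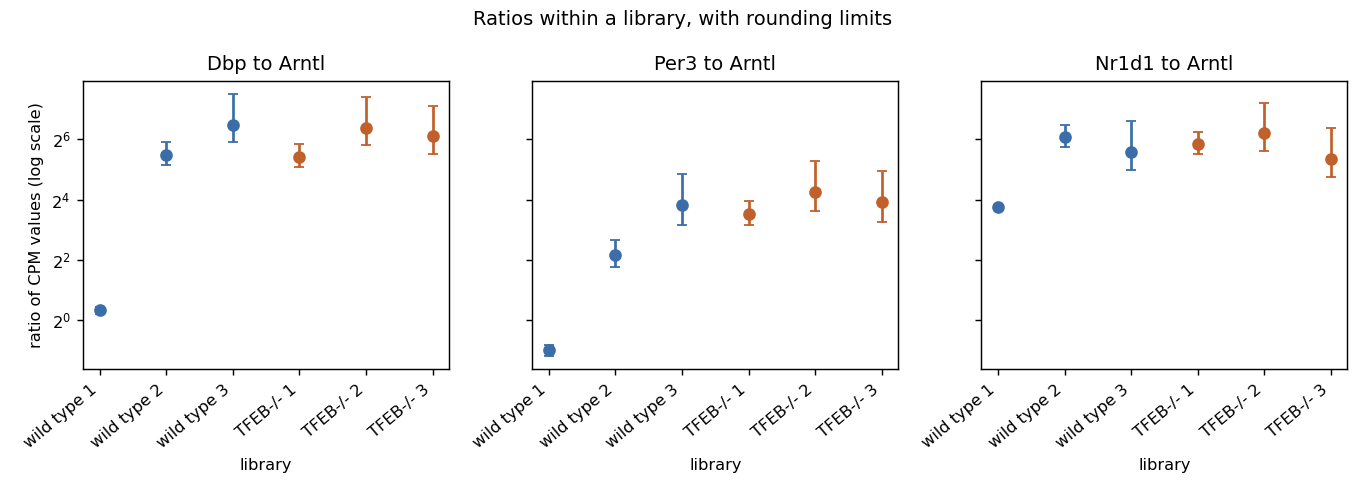
Points give the ratio of 2 CPM values within each library (log axis, base 2), for Dbp to Arntl, Per3 to Arntl and Nr1d1 to Arntl, in wild type (blue) and TFEB-/- (orange), and bars give the limits left by rounding each value to a whole number. Wild type 1 lies lowest in each panel, at 1.25, 0.5 and 13.5, and the TFEB-/- libraries lie among or close to the other wild-type libraries. Arntl, the denominator in each panel, was itself highest in wild type 1.

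The 3 Period genes, inhibitors of the loop, were each lowest in wild type 1, and none passed the adjusted threshold. Per2 (ENSMUSG00000055866; chromosome 1, 91415982 to 91459324, minus strand) was at 3, 9 and 14 CPM in wild type, against 10, 12 and 23 CPM in TFEB-/-. The values of the groups interleaved, with wild type 1 lowest and TFEB-/- 3 highest (log2 fold change 0.89, SE 0.64, limma adjusted p = 0.431, and 0.31 without wild type 1). Per1 (ENSMUSG00000020893; chromosome 11, 69095217 to 69109960, plus strand), the Period gene that also answers quickly to stress and hormone signals, was at 32, 43 and 60 CPM and at 90, 57 and 72 CPM. TFEB-/- 2 lay below wild type 3, so the groups overlapped (log2 fold change 0.71, SE 0.29, adjusted p = 0.23, and 0.49 without wild type 1).

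Immediate early genes varied beside Per1 within TFEB-/-. Their summed CPM over 21 genes was 6918, 3175 and 7320 in TFEB-/- 1, 2 and 3, where Per1 was at 90, 57 and 72 CPM, and 5152, 4243 and 4024 in wild type 1, 2 and 3, where Per1 was at 32, 43 and 60 CPM. Their part in the Per1 values was not tested. Of the 21 genes 0 passed the threshold in limma and 1 had an unadjusted p below 0.05, against 23.3% of all genes. The most abundant, Egr1 and Fos, had log2 fold changes of 0.21 (adjusted p = 0.697) and 0.49 (adjusted p = 0.466).

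Per3 (ENSMUSG00000028957; chromosome 4, 151003652 to 151044665, minus strand), whose promoter carries the D-box pair shown above, was at 6, 9 and 14 CPM in wild type, against 23, 19 and 15 CPM in TFEB-/-. Every TFEB-/- library was above every wild-type library, by 1 CPM between the nearest values. The log2 fold change was 0.996 (SE 0.344, unadjusted p = 0.0348, limma adjusted p = 0.179), and it was 0.71 without wild type 1 (adjusted p = 0.22). With median-ratio scaling the groups overlapped.

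Cry2 was the clock gene that separated the genotypes best, although it did not pass the threshold. Cry2 (ENSMUSG00000068742; chromosome 2, 92403646 to 92434043, minus strand), a cryptochrome that blocks the ARNTL and CLOCK pair, was at 21, 30 and 29 CPM in wild type, against 60, 47 and 55 CPM in TFEB-/-. The 2 groups were well apart, also with median-ratio scaling, and their means were 26.7 ± 4.93 and 54 ± 6.56 CPM (SD, n = 3 each). The log2 fold change was 1.01 (SE 0.18, 95% interval 0.56 to 1.47, limma adjusted p = 0.0521), or 0.78 relative to the median of all genes, and by exact permutation of the 6 values (two-sided) p was 0.1, the lowest possible with 3 against 3. Without wild type 1 it was 0.85 (SE 0.12, adjusted p = 0.0609), and the groups were still apart. Cry2 passed the threshold in 2 of 18 alternatives, with a filter of 5 CPM (adjusted p = 0.0107, where 6.44% of genes were called higher) and with robust hyperparameters (adjusted p = 0.00782, where 6.27% were), within a range of adjusted p from 0.00782 to 0.191.

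Other measures moved with the genotype beside Cry2. The summed CPM of 9 macrophage and leukocyte markers was 20 to 28 in wild type and 39 to 49 in TFEB-/-, with Ptprc at 0 in all libraries, and that of 8 pericyte and smooth muscle markers was 367 to 458 and 553 to 564. Within the latter list the log2 fold changes ran from −0.28 to 1.22, with a median of −0.03 beside 0.24 for all genes. Only part of that list thus carries its sum. Sums of the clock partner, clock-controlled and neural lists, taken up below, also lay wholly higher in TFEB-/-, and those of the other lists overlapped. As deposited, 21.2% of all genes lay wholly above wild type. The part of any of these lists in the Cry2 values was not tested. Cry1 (ENSMUSG00000020038; chromosome 10, 85131700 to 85185064, minus strand), the cryptochrome that carries the E-box shown above, was at 5, 3 and 4 CPM in wild type, against 5, 4 and 6 CPM in TFEB-/-. Its values lay within 3 CPM of each other and overlapped (log2 fold change 0.30, 95% interval −0.28 to 0.88, limma adjusted p = 0.454).

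Nr1d1, the repressor described as a target of TFEB, differed more within each genotype than between them. Nr1d1 (ENSMUSG00000020889; chromosome 11, 98767932 to 98775333, minus strand) was at 162, 134 and 48 CPM in wild type, against 114, 74 and 41 CPM in TFEB-/-. Wild type 1 and wild type 2 lay above all TFEB-/- libraries, while wild type 3 lay below TFEB-/- 1 and TFEB-/- 2, so the groups overlapped. The means were 115 ± 59.4 and 76.3 ± 36.6 CPM, and the log2 fold change was −0.53 (SE 0.62, limma adjusted p = 0.62) with a 95% interval of −2.14 to 1.09, wide enough to hold both a large fall and a rise. With median-ratio scaling and the replicate block together it was −0.77 and passed the threshold (adjusted p = 0.0386, where 0.973% of genes were called lower), the only one of 18 alternatives in which it did. Nr1d2 (ENSMUSG00000021775; chromosome 14, 18204054 to 18239127, minus strand), the second repressor of this pair, was steady at 28, 37 and 37 CPM and at 37, 43 and 37 CPM. Its log2 fold change was 0.20 (95% interval −0.16 to 0.57, adjusted p = 0.418) as deposited and −0.03 with median-ratio scaling, so it lay at the median of all genes and its sign depended on the scaling.

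Nr1d1 and Per2 ordered the 6 libraries in exactly opposite ways. From high to low Nr1d1 the order was wild type 1, wild type 2, TFEB-/- 1, TFEB-/- 2, wild type 3 and TFEB-/- 3, with Nr1d1 at 162, 134, 114, 74, 48 and 41 CPM. Per2 was higher at each step of that order, at 3, 9, 10, 12, 14 and 23 CPM, and both genotypes were found among the first 3 and among the last 3 libraries of it. Of the 45 pairs of clock genes this was the only pair with a strictly opposite order, and 3 of the 12437 tested genes (0.0241%), Per2 included, were ordered opposite to Nr1d1. The pair was noticed after the values were seen.

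**Figure D3:**
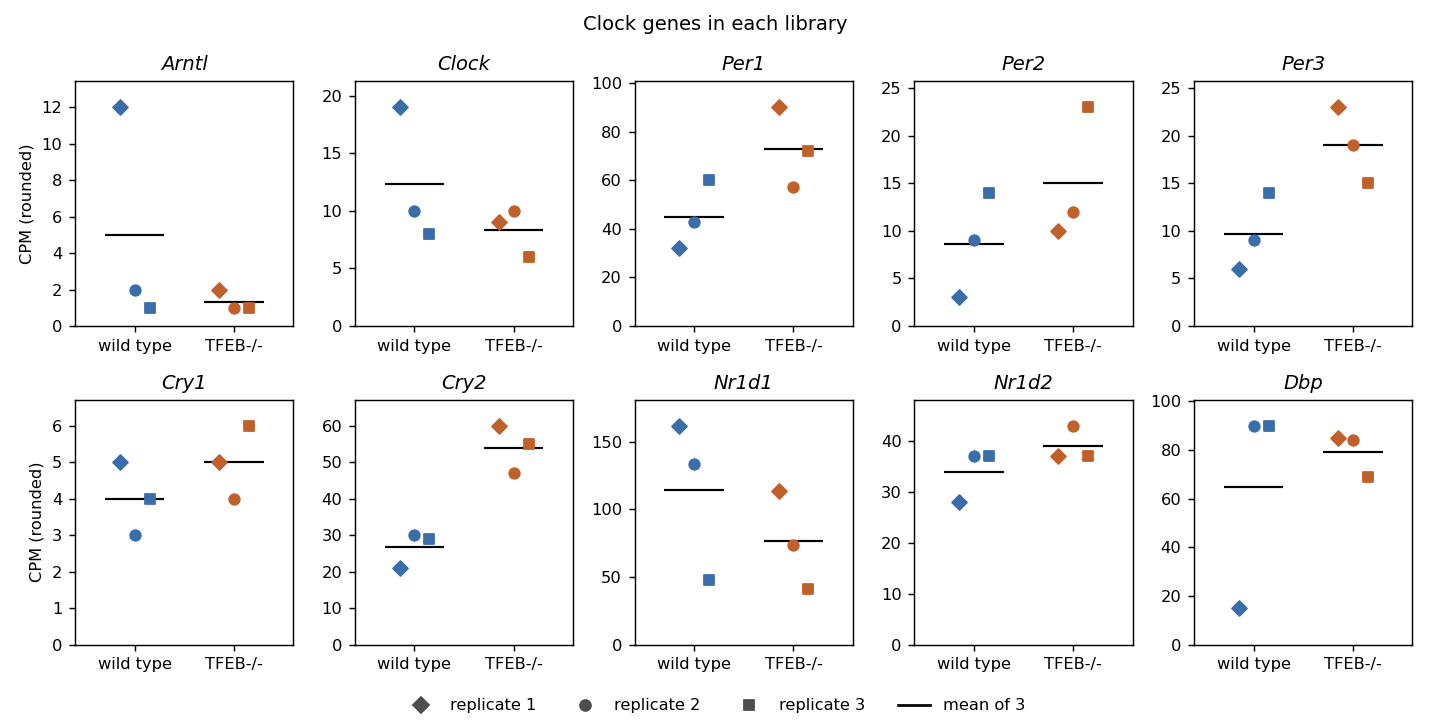
Each panel shows 1 clock gene, with CPM on a linear axis from 0, wild type in blue, TFEB-/- in orange, the replicate number by symbol and the mean of 3 libraries as a bar. Wild type 1 (blue diamond) is the outlying point for Arntl (12 CPM) and Dbp (15 CPM), and the groups do not overlap for Per3 and Cry2.

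Levels of different genes were compared per kilobase of principal transcript, which holds only if the deposited values were not already scaled by length, a point the sources used here do not state. On this scale Nr1d1 (42.1 ± 21.8 CPM per kb) and Dbp (35.4 ± 23.6) were the most abundant clock transcripts in wild type, followed by Per1 (9.63 ± 3.02), Nr1d2 (7.29 ± 1.11) and Cry2 (6.71 ± 1.24). Arntl, Per3, Per2, Cry1 and Clock followed at 1.27 to 1.68 CPM per kb. Without wild type 1 the mean of Arntl was 0.504 instead of 1.68 CPM per kb, the lowest of the 10, and Dbp (49.0) came before Nr1d1 (33.4). The only neighbours in this order with separate ranges were Cry2 and Arntl. In TFEB-/- the order was led by Dbp (43.2 ± 4.88 CPM per kb), Nr1d1 (28.1 ± 13.4), Per1 (15.6 ± 3.54) and Cry2 (13.6 ± 1.65), and the ranges were separate between Cry2 and Nr1d2, Nr1d2 and Per3, and Cry1 and Clock.

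With all 6 libraries, the counts of clock genes that differed between the genotypes were close to or below the shares of all genes. Of the 10 genes 0 passed the adjusted threshold of 0.05 in limma in either direction, against 4.44% of all tested genes (3.92% higher, 0.523% lower). At an unadjusted p below 0.05 there were 2 of 10, Cry2 and Per3, against 23.3% of all genes. The TFEB-/- values lay wholly above wild type in these 2 genes, against 21.2% of all genes, and wholly below in 0, against 2.28%. With median-ratio scaling 1 of the 10, Cry2, lay wholly above, against 14.3% of genes. Their median log2 fold change was 0.48, beside 0.24 for all genes, with 6 above and 4 below that median. Without wild type 1 the median of the 10 genes was 0.19, beside 0.29 for all genes, with 5 above and 5 below. Then 0 passed in limma (3.3% of genes higher, 0.308% lower, 3.6% in all), and 1 of the 10 had an unadjusted p below 0.05, against 27.1% of genes, and 2 lay wholly above wild type, against 37.7%, and 1, Dbp, wholly below, against 2.56%.

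**Figure D4:**
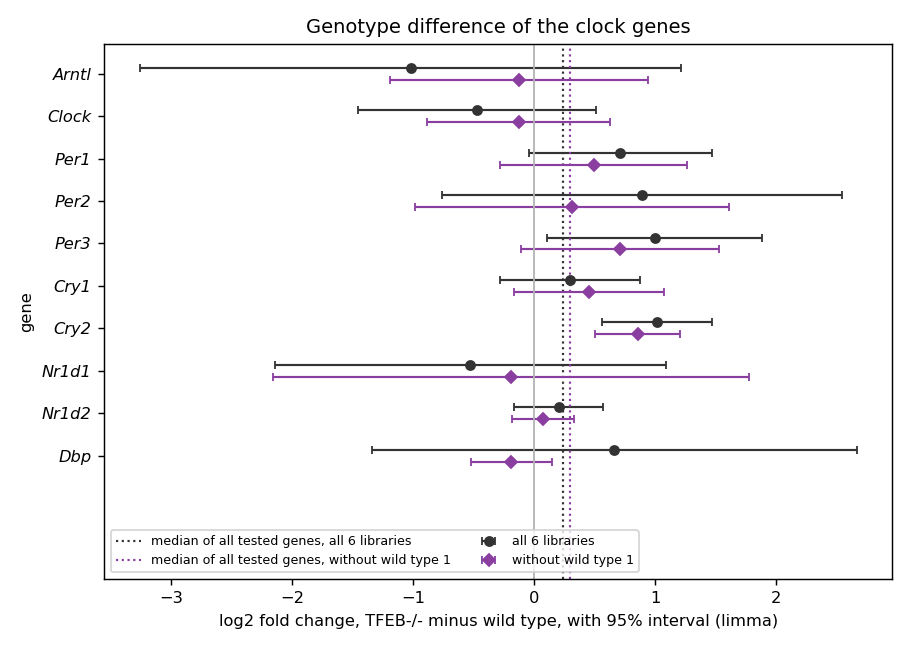
Points give the limma log2 fold change of each clock gene (TFEB-/- minus wild type) with its 95% interval, with all 6 libraries (black) and without wild type 1 (purple), and dotted lines give the median of all tested genes in each fit. The interval of Cry2 is the one that lies wholly above the median of all genes in both fits, and that of Dbp shrinks and its point crosses 0 when wild type 1 is left out.

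Other genes of the loop also stood apart in wild type 1 in part. Of 12 tested partner and feedback genes 0 passed the threshold in limma and 2 had an unadjusted p below 0.05, against 23.3% of all genes. The list median was 0.23. Bhlhe40, a repressor at E-boxes, was at 173, 133 and 98 CPM and at 170, 127 and 133 CPM, and Tef was at 67, 107 and 130 CPM in wild type, against 146, 138 and 152 CPM in TFEB-/-. Tef was thus lowest in wild type 1 and its groups did not overlap (log2 fold change 0.57, limma adjusted p = 0.254). Npas2 above and the next 3 genes were picked after their values were seen. Ciart was at 2, 12 and 13 CPM and at 12, 16 and 10 CPM, Hlf, another D-box activator of this family, at 11, 14 and 18 CPM and at 26, 23 and 25 CPM, and Nfil3, a D-box repressor, at 36, 18 and 15 CPM and at 22, 13 and 48 CPM. Hlf did not overlap between the genotypes (log2 fold change 0.79, limma adjusted p = 0.0969, and 0.62 without wild type 1). As deposited 3 of the 12 genes lay wholly above wild type, against 21.2% of all genes. With median-ratio scaling the groups of both Tef and Hlf overlapped. Ciart went from a log2 fold change of 0.79 to −0.01 when wild type 1 was left out.

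Genes that modify clock proteins were looked at next. Of 18 tested kinases, ubiquitin ligases and cofactors, with a list median of 0.16, 0 passed the threshold in limma. An unadjusted p below 0.05 was found for 3 of them, against 23.3% of all genes. With quantile normalization 1 of them, the kinase Gsk3b, was called lower (log2 fold change −0.42, limma adjusted p = 0.0487, against −0.18 as deposited). The ligase adaptor Ddb1 was at 111 to 162 CPM in wild type and 137 to 171 CPM in TFEB-/-, and the deubiquitinase Usp2, itself a clock output, at 91, 119 and 119 CPM and at 145, 119 and 142 CPM, lowest in wild type 1.

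Among 19 tested genes described as clock-controlled the list median was 0.01. In limma 1 gene was called higher and 1 lower, against 3.92% and 0.523% of all genes. An unadjusted p below 0.05 was found for 5 of the 19, against 23.3% of all genes. The gene called higher is not reported here. The ketone body enzyme Bdh1 fell from 141, 117 and 107 CPM to 54, 51 and 57 CPM, or −1.16 on the log2 scale (SE 0.12, limma adjusted p = 0.0132), and 4 of 18 alternatives ended that call, namely the replicate block and leaving out TFEB-/- 1, TFEB-/- 3 or wild type 2 (adjusted p = 0.059 to 0.0912). The groups did not overlap. Tspan4, picked after its values were seen, was at 8 CPM in wild type 1 and at 18 to 21 CPM in the other 5 libraries.

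Systemic cues that reset peripheral clocks were looked at through their target genes. Among all genes 23.3% had an unadjusted p below 0.05 in limma. Of 12 glucocorticoid-responsive genes 0 passed the threshold in limma and 1 had an unadjusted p below 0.05. Of 8 temperature and heat shock genes 0 passed and 2 had an unadjusted p below 0.05. The most abundant of these, Dusp1 (109 to 347 CPM), Mt1 (154 to 292 CPM), Hspa8 (811 to 1551 CPM) and Hspa1a (71 to 294 CPM), had log2 fold changes of 0.09, 0.31, 0.07 and 0.46. With median-ratio scaling those of Dusp1 and Hspa8 turned to −0.14 and −0.17. Wild type 1 was neither the highest nor the lowest library for Dusp1, Hspa8 and Hspa1a, and it was the lowest for Mt1.

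Markers of other cell types differed in level from list to list, and the fat cell list summed to 0 in 4 of the 6 libraries. Of 8 fibroblast markers 1 passed, Pdgfra, which was 2 CPM throughout wild type and 3 CPM throughout TFEB-/-. This single step of rounding did not pass under the other scalings (adjusted p = 0.168 to 0.336). Of 8 pericyte and smooth muscle markers Cspg4 rose from 10, 12 and 11 CPM to 29, 21 and 21 CPM (log2 fold change 1.06, limma adjusted p = 0.0374), and of 3 tested neural markers Uchl1 rose from 3, 5 and 3 CPM to 40, 18 and 28 CPM (log2 fold change 2.77, adjusted p = 0.0255), while Th was at 0. Cspg4 lost its call in each fit without 1 library except that without TFEB-/- 1 (adjusted p = 0.0753 to 0.128 in the others), and Uchl1 in each except that without TFEB-/- 2 (0.0598 to 0.128). None of 10 cardiomyocyte, 11 endothelial, 7 macrophage and leukocyte and 3 red cell genes tested passed in limma. Those at an unadjusted p below 0.05 numbered 0, 2, 2 and 0, against 23.3% of all genes. Under other scalings 1 endothelial marker was called lower, Cldn5, picked after its values were seen. It was at 19, 14 and 16 CPM in wild type, against 12, 11 and 11 CPM in TFEB-/-, with a log2 fold change of −0.50 as deposited (limma adjusted p = 0.105) and −0.73 with median-ratio scaling (adjusted p = 0.021). With quantile normalization the cardiomyocyte marker Pln was also called lower (−0.48, adjusted p = 0.0473, against −0.21 as deposited). The macrophage marker Lyz2 did not overlap between the genotypes, at 6, 7 and 9 CPM in wild type, against 14, 20 and 16 CPM in TFEB-/-. Its log2 fold change was 1.13 (limma adjusted p = 0.0544). It passed the threshold with a filter of 5 CPM (adjusted p = 0.00992) and with robust hyperparameters (adjusted p = 0.00767). Fabp4 and Cdh5, the most abundant endothelial markers, were at 112 to 176 and 50 to 86 CPM. Csf1r was at 3 to 7 CPM, and the fat cell markers Cidec and Adipoq at 0 or 1 CPM.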

How the data were processed

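Values are the authors' deposited score, taken from the table's name to be CPM from kallisto, rounded by the authors to whole numbers. Scaling by transcript length is not stated, and neither is the depth of each library. Without roles, edgeR, DESeq2, kallisto, StringTie, Salmon, STAR, RSEM, HISAT2 and the build GRCm38 are listed in the submitters' processing notes. Of 46517 entries, 26 date-like names were restored, 303 missing names looked up by gene ID and shared symbols summed. Positions and principal transcript lengths are from GENCODE M21, and promoter sequences are from RefSeq (GRCm38.p6). Genotypes were compared with limma 3.58.1 (R 4.3.3) on log2(CPM + 0.5), which understates changes of low genes, with eBayes and a mean-variance trend and Benjamini-Hochberg adjustment over the 12437 genes that reached 1 CPM in 3 or more libraries. The fit was also run on simulated data with independent normal noise and no outlying library, so that run does not cover the case of wild type 1. Single genes were also compared by exact two-sided permutation. The clock genes and all lists were chosen with earlier results of these data known. Named genes are Tfeb, the 10 clock genes and, per list, up to 4 genes past the threshold or else the 2 most abundant. Alternatives were 2 pseudocounts, 2 filters, 3 scalings, no trend, robust hyperparameters, the replicate block with and without median-ratio scaling, each library left out and, added after the data were seen, wild type 1 left out with median-ratio scaling. The labels do not say whether replicate numbers pair the libraries. Some results that the rule names are not reported here.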

Additional observations from a re-analysis of the deposited data

How the results depend on the processing

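Under the 18 alternatives, 597 of 697 values for 41 genes kept direction and side of the threshold, 41 lost their call, 7 gained one and 52 changed sign. The count of clock genes called higher was 0 except with a filter of 5 CPM and with robust hyperparameters (1 each, Cry2), and that of clock genes called lower was 0 except with the replicate block and median-ratio scaling (1, Nr1d1). Over all genes, 487 were higher and 65 lower. Robust hyperparameters gave 780 higher. Lower calls numbered 200 with median-ratio scaling (481 higher), 188 without mitochondrial transcripts (460 higher) and 172 with quantile normalization (397 higher). Leaving out 1 library gave 154 to 406 higher and 38 to 87 lower. The replicate block gave 159 higher and 26 lower, and with median-ratio scaling 256 and 121. Same-numbered libraries correlated at 0.14, −0.049 and 0.088, and not every library correlated best with its own number. These values cannot settle whether the numbers pair the libraries.

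With median-ratio scaling, with or without the replicate block, log2 fold changes turned to −0.033 for Nr1d2, −0.12 for Bhlhe40, −0.0018 for Ddb1, −0.14 for Dusp1, −0.028 for Egr1, −0.17 for Hspa8 and −0.069 for Nfil3. Without mitochondrial transcripts they were −0.019 for Nr1d2, −0.11 for Bhlhe40, −0.13 for Dusp1, −0.014 for Egr1, −0.16 for Hspa8 and −0.057 for Nfil3. With quantile normalization they were −0.036 for Nr1d2, −0.12 for Bhlhe40, −0.14 for Dusp1, −0.090 for Hspa8 and −0.096 for Nfil3. Without wild type 1 and with median-ratio scaling, an alternative chosen after seeing the data, they were −0.31 for Ciart, −0.50 for Dbp, −0.13 for Dusp1, −0.014 for Egr1, 0.13 for Hba-a1, −0.26 for Hspa8, −0.16 for Mt1, −0.24 for Nr1d2, −0.012 for Tef, −0.26 for Tspan4 and −0.13 for Usp2. Leaving out 1 library gave ranges across 0 for Dbp (−0.19 to 1.09), Ciart (−0.0058 to 1.21), Bhlhe40 (−0.094 to 0.31), Dusp1 (−0.24 to 0.60), Hspa8 (−0.15 to 0.32), Hspa1a (−0.011 to 1.01), Fabp4 (−0.28 to 0.042), Cdh5 (−0.37 to 0.020), Hba-a1 (−1.38 to 0.39), Hbb-bs (−1.04 to 0.12), Npas2 (−1.04 to 0.12) and Nfil3 (−0.33 to 0.59). The cause of these changes was not tested. Rounding to whole CPM limits genes of a few CPM, Arntl and Cry1 among them.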
